A study of Mus musculus with 3 samples.

Results

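Among the single cells of testes from busulfan-treated mice, 1316 cells of the interstitial connective tissue were taken for their transcripts of Igf1, Dlk1 and Col15a1, and they are described here as the Igf1 set. They were chosen from 24252 cells that passed filters on UMIs (molecular tags, each standing for 1 captured RNA molecule), genes and mitochondrial content, and from 10539 of these that passed stromal gates. The gates required at least 3 of the 6 stromal genes Pdgfra, Dcn, Col1a1, Col1a2, Col3a1 and Tcf21, no UMI of Ptprc, Pecam1 or Myh11, and under 0.3% of UMIs from the Leydig genes Cyp11a1, Cyp17a1 and Hsd3b6. A gated cell entered the Igf1 set when Igf1, Dlk1 and Col15a1 together had at least 2 UMIs and more than each of 3 rival sums: Cyp26b1 with Col4a3 and Col4a4 (the Cyp26b1 set, 3486 cells), Mfap5 with Igfbp6 and Pi16 (the Mfap5 set, 4716 cells), and Thbd with Cd248 and Cd34 (the Thbd set, 363 cells). The measured values of these genes therefore made the sets, and the contrast between sets is a description and no test.

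All 3 groups of mice carried busulfan, an alkylating drug that removes dividing germ cells and leaves the somatic cells of the testis. In the PBS group (PBS+Busulfan) the saline vehicle was injected, in the EXO group (EXO+Busulfan) blood exosomes of wild-type mice, and in the dEXO group (dEXO+Busulfan) blood exosomes of mice whose intestinal microbiota was imbalanced. There was 1 library per group, and strain, age and how many mice gave each library are not given in the sources used here; the labels name testis as the tissue, while their extraction text speaks of aorta. Exosomes are small vesicles that cells release.

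Interstitial stromal cells lie between the seminiferous tubules, lay down collagen and basement-membrane components, and include cells from which Leydig cells, the source of testosterone, can arise. Igf1 encodes a secreted growth factor that acts through a receptor tyrosine kinase and is held in the tissue by binding proteins (Igfbp genes). Dlk1, from an imprinted gene cluster it shares with the noncoding RNA Meg3, is a membrane protein of the Notch ligand family found on progenitor cells, and Col15a1 is a collagen anchored to basement membranes. In GRCm38 (GENCODE annotation) Igf1 lies on chromosome 10 from 87858265 to 87937042, Dlk1 on chromosome 12 from 109452823 to 109463336, and Col15a1 on chromosome 4 from 47208161 to 47313167.

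By library, 307 PBS, 548 EXO and 461 dEXO cells belonged to the Igf1 set. Their median depth was 5376 UMIs for PBS, 2656.5 for EXO and 2226 for dEXO, so the PBS cells were the deepest. Summed over the set, the libraries held 1749250, 1723742 and 1351956 UMIs. A few cells were very deep: 1 PBS, 4 EXO and 6 dEXO cells had over 4 times the median of their library, up to 154113 UMIs, and held 8.81%, 10.97% and 22.2% of the set's UMIs. Results below use all cells, and many are also given without these 11 cells, a choice made after the data were seen. The limits were 21504, 10626 and 8904 UMIs in PBS, EXO and dEXO. In contrasts with the other stromal sets, cells past these limits were left out of those sets too. Of the 2268, 4978 and 3293 gated stromal cells, 2194, 4771 and 3136 then remained. Levels are CPM, the UMIs of a gene as a share of all UMIs of the summed cells, scaled in the usual way. A difference between libraries is the log2 ratio of CPM less its median over all tested genes, a shift of 0.10 for EXO, 0.16 for dEXO against PBS and 0.04 between EXO and dEXO, and its bracketed 95% interval covers counting error only. A gene was called higher or lower past 1.5-fold with an interval that excludes no difference. The 3 libraries have no replicate spread to set these differences against, and no p-value was computed. In summed cells, fewer cells that express a gene and less RNA of it per cell cannot be told apart, except where shares of cells are given. Of the kept cells, 15 to 17 cell barcodes were shared by each pair of libraries, none of them between cells of the Igf1 set.

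All 9 stromal markers were detected in every library, but the gate asked for 3 of 6 such genes in each cell, so this is no check of the label. Some defining markers of other types were at 0. Myh11, Pecam1 and Ptprc were 0 by the gates; Higd1b of pericytes and Upk3b and Msln of mesothelium, which the gates did not use, were also at 0 in all 3 libraries. Rgs5 of pericytes was at 0 in EXO and dEXO, Vwf of endothelium in PBS and EXO, and Amh of Sertoli cells in PBS and EXO. Other members of these lists were present: 4 or 5 of 6 endothelial markers had UMIs, with sums of 125, 172 and 99.9 CPM, as had 3 or 4 of 6 pericyte markers, with sums of 25.2, 32.5 and 21.5 CPM. Most of the endothelial sum was Cdh5, an endothelial cadherin, at 119, 167 and 86.5 CPM against 98.6, 119 and 66.7 in the other stromal sets, and seen in 40.4%, 37.4% and 19.5% of members. Of the other lists, the 8 Leydig markers summed to 415 CPM in PBS, 1029.7 in EXO and 921 in dEXO, and the 6 Sertoli markers to 201, 787 and 1036 CPM, or 211, 810.0 and 573 CPM without the 11 very deep cells. Spermatid markers summed to 850.1, 822 and 1607 CPM, or 179.9, 336 and 1062 CPM without them. The Leydig and Sertoli sums were lowest in PBS, whereas the sums of peritubular myoid and smooth muscle markers, at 325, 294 and 232 CPM, and of Schwann markers, at 153, 151 and 99.1 CPM, were highest there. The part of all these transcripts in the differences between libraries was not tested.

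As a share of gated stromal cells the Igf1 set made up 13.5% of the PBS stroma (Clopper-Pearson interval 12.2 to 15.01). It was 11.01% of the EXO stroma (10.2 to 11.9), and for dEXO the share was 14.0% (12.8 to 15.2). With every cell thinned to 1500 UMIs the shares were 13.8%, 12.3% and 14.5%, and the PBS and dEXO intervals overlapped while that of EXO lay below both before thinning. The deciding sum had a median of 23 UMIs in PBS, 13 in EXO and 10 in dEXO, and 1, 3 and 10 cells entered with the smallest sum allowed, 2. Just inside, 23, 62 and 88 members led the next sum by 1 UMI; just outside, 23, 100 and 73 cells were tied for the lead and 1, 3 and 3 led with a sum of 1.

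Of the 3 defining genes, Igf1 carried the set. Igf1 was seen in 100% (PBS), 99.8% (EXO) and 98.3% (dEXO) of members, Col15a1 in 87.0%, 81.8% and 75.7%, and Dlk1 in 37.1%, 37.0% and 25.2%. A combination of Igf1 and Col15a1 without Dlk1 was the commonest state, in 53.7%, 51.3% and 57.0% of cells. All 3 genes were seen together in 33.2%, 30.3% and 17.6%. With each cell at 1500 UMIs the Dlk1 shares were 29.2% (PBS), 33.8% (EXO) and 18.9% (dEXO); the share in dEXO was also the lowest at this equal depth. Among T or NK cells, which should lack Dlk1, 0 of 274 PBS cells had a UMI of it, which allows a share of up to 1.09%. For EXO it was 0 of 366 cells, which allows up to 0.820%, and for dEXO 1 of 265 cells. Median depths of the T or NK cells were 4154, 2619.5 and 2318 UMIs. They were admitted only with few stromal genes detected, which favours a low Dlk1 share, so they set no bound on free RNA. The part of free RNA in the Dlk1 shares of the set was not tested. The level of Igf1 was 2999.6 CPM in PBS, 3269.6 CPM in EXO and 2817 CPM in dEXO, with log2 ratios to PBS of 0.02 (-0.03 to 0.07) in EXO and -0.25 (-0.31 to -0.19) in dEXO, none called; Col15a1 stood at 701 CPM in PBS, 798 CPM in EXO and 661 CPM in dEXO. Both levels lay within 1.5-fold across the libraries.

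Against the other 3 stromal sets summed, 90 of 12609 genes with enough UMIs, or 0.714%, were over 2-fold higher in the Igf1 set in all 3 libraries, and 253, or 2.01%, were over 2-fold lower, the genes of the rule left out. Of the 90, 63 were also higher against the Cyp26b1 set alone, 80 against the Mfap5 set and 36 against the Thbd set. In these 3 contrasts 8628, 11470 and 4885 genes had enough UMIs. Of the 253, 71, 174 and 6 were also lower. With very deep cells left out of the Igf1 set and of the other sets, 45 genes were higher and 277 lower. Of these, 44 and 103 were also in the first count. The gene with the largest excess by the ratio nearest 0 was Fabp4, a fatty acid carrier of adipocyte lineage and endothelial cells, at 92.6, 83.0 and 52.5 CPM against 9.94, 4.98 and 2.99 in PBS, EXO and dEXO. Ccl19, a chemokine of reticular stromal cells, stood at 49.2, 67.3 and 37.7 CPM against 7.81, 5.504 and 2.60. Fabp4 had 162, 143 and 71 UMIs and Ccl19 86, 116 and 51 in the whole set, so their shares of cells with a UMI are limited by depth: Fabp4 was seen in 17.3%, 13.9% and 8.68% of the Igf1 set and Ccl19 in 20.5%, 15.5% and 9.11%.

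**Figure D1:**
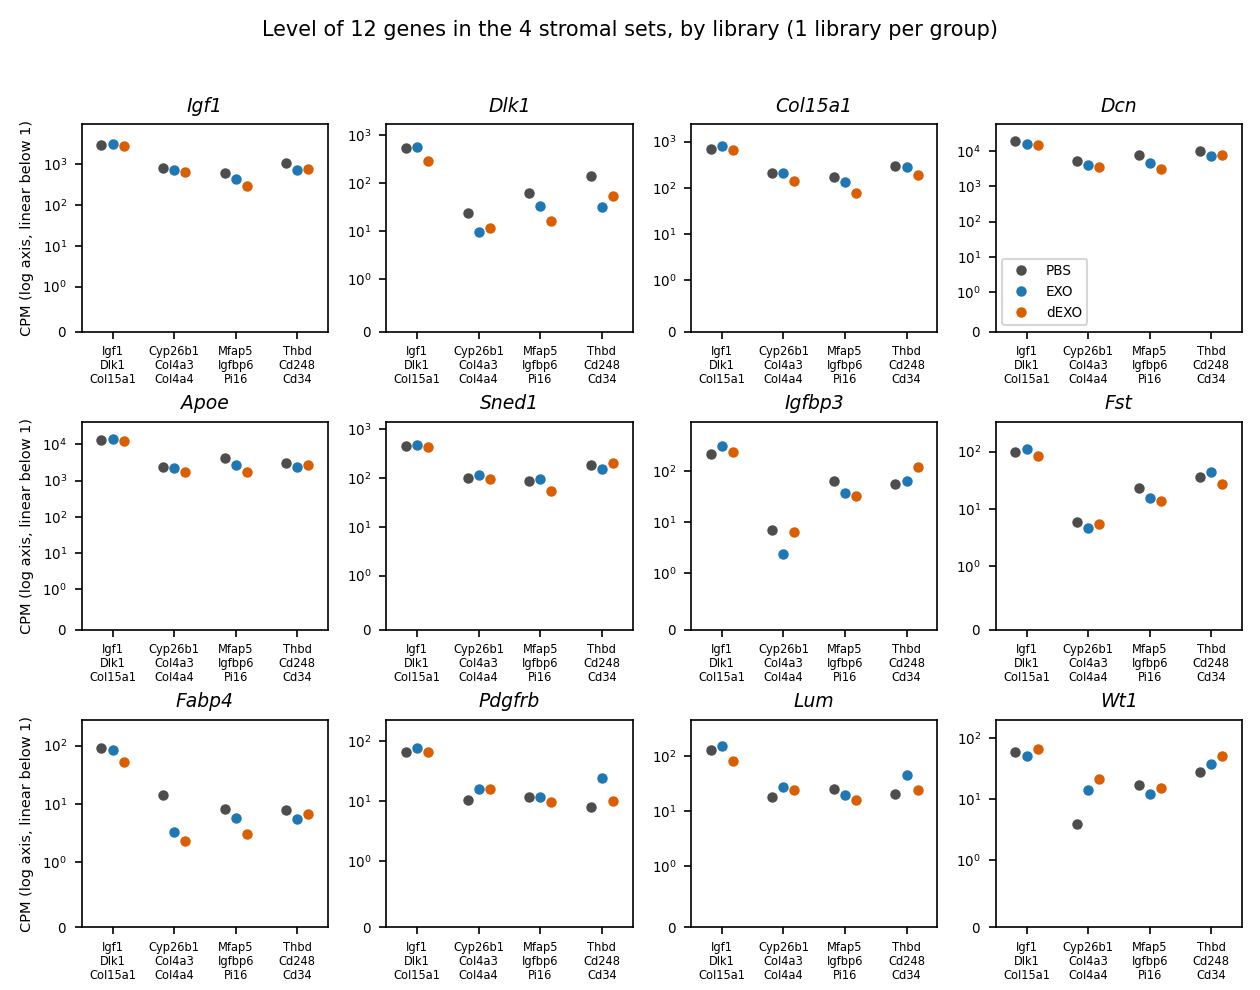
CPM of 12 genes on a log axis (linear below 1) in the 4 stromal sets, named on the horizontal axis by the genes that define them; each point is 1 library. The 9 genes from Dcn to Wt1 were outside the choice of the set except Dcn, a gate gene, and each stood higher in the Igf1 set than in the sum of the others in all 3 libraries.

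Broadly shared markers of the set were Sned1, an extracellular matrix protein, and the plasma lipid carrier Apoe. Sned1 was seen in 73.9% of PBS, 61.9% of EXO and 56.0% of dEXO members and stood at 448, 476 and 437 CPM against 92.6, 104 and 66.9. Apoe stood at 12979, 13843 and 12543 CPM against 3651, 2463 and 1742, and Osr1, a transcription factor of embryonic mesoderm, at 584, 524 and 542 CPM against 195, 128 and 111. These 3 genes kept their excess without very deep cells, with log2 ratios of 2.06, 1.61 and 1.77 for Sned1, 1.73, 2.01 and 1.94 for Apoe and 1.38, 1.49 and 1.36 for Osr1.

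Genes for an antagonist, a binding protein and receptors of growth factors were among those named. Fst, which encodes the activin antagonist follistatin, stood at 96.6, 109.6 and 82.1 CPM against 18.6, 12.9 and 11.7, and Igfbp3, which binds circulating and tissue IGF1, at 214, 309 and 239.7 CPM against 47.9, 26.8 and 28.0. The receptor genes Pdgfrb, for platelet-derived growth factor, and Cntfr, for ciliary neurotrophic factor, stood at 66.9, 76.6 and 65.8 CPM against 11.4, 13.5 and 11.3 and at 73.2, 64.4 and 74.7 CPM against 15.4, 13.7 and 10.98. Of 27 tested genes of the TGF-beta and BMP pathway, 7 were over 2-fold higher in all 3 libraries (Tgfb2, Inhba, Fst, Id1, Id2, Id3 and Bambi) and 2 lower (Bmp2 and Chrdl1). The shares over all genes tested between sets were 0.714% higher and 2.01% lower. Tgfb2 and the activin subunit Inhba are ligands, and the Id genes and Bambi are targets of the pathway. On the list of niche and growth factors 2 of 17 were higher (Cxcl12 and Mdk) and 2 lower (Il11 and Gas6), beside the same shares of all genes.

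The small leucine-rich proteoglycan Lum stood at 129, 149.7 and 80.6 CPM against 23.1, 22.7 and 17.9 and the microfibril protein Mfap2 at 147, 151 and 107 CPM against 38.4, 26.6 and 16.0. Dcn, the best known proteoglycan of that family and a gate gene, had 18886, 15502 and 14285 CPM against 6953, 4425 and 3250.3. Wt1, a transcription factor of gonadal somatic cells, had 58.9, 50.5 and 67.3 CPM against 13.7, 13.6 and 17.3. The Thbd set alone was nearer, with Wt1 at 27.9, 37.4 and 50.4 CPM. Among imprinted genes, Cdkn1c, a cell cycle inhibitor, at 111, 109 and 91.7 CPM against 51.4, 28.1 and 21.3, and Peg3, a zinc finger gene, at 134, 168 and 127 CPM against 53.7, 46.9 and 25.9, were past 2-fold, whereas Meg3, the neighbour of Dlk1, was not, at 393, 352 and 329 CPM against 415, 553 and 354. Without very deep cells the log2 ratios for PBS, EXO and dEXO were -0.27, -1.23 and -1.06 for Meg3, so it was past 2-fold lower in EXO and dEXO. They were 0.91, 1.46 and 1.23 for Cdkn1c, below 2-fold in PBS, and 1.31, 1.48 and 1.48 for Peg3. The synaptic adhesion gene Lrrtm3, the ubiquitin ligase Trim9, Nt5dc2, Fndc5 and Cacng4, a calcium channel subunit, completed the 15 highest genes, with log2 ratios of 1.89 or more in each library. Without very deep cells Trim9 had 2.27, 2.08 and 1.35 and Cacng4 1.68, 1.45 and 1.35. In dEXO Cacng4 stood at 91.0 CPM against 63.8 in the Thbd set alone.

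Aldh3a1, an aldehyde dehydrogenase, stood at 0, 5.22 and 2.22 CPM against 49.4, 43.9 and 21.1; Alpl, alkaline phosphatase, at 6.86, 5.80 and 2.96 CPM against 57.5, 56.2 and 31.8. Ccn2 and Ccn5, matricellular proteins, stood at 29.2, 52.2 and 31.8 CPM against 233, 365 and 248 and at 1.72, 5.80 and 1.48 CPM against 62.4, 42.5 and 30.6. Lhcgr, the luteinizing hormone receptor of Leydig cells, stood at 5.72, 15.1 and 9.62 CPM against 137, 93.2 and 60.0, and its level is bounded by the Leydig gate. Col14a1, a fibril-associated collagen, stood at 2.29, 4.06 and 2.22 CPM against 26.7, 22.5 and 18.5. Tnnt2, Edn3 and Tg were also among the 10 lowest; Tmed6 was too, but without very deep cells its log2 ratios were -0.05, -0.38 and -0.72. Cholesterol synthesis genes, which steroid-making cells use, were below the other sets in all 3 libraries for 19 of 22 genes, 6 of them past 2-fold, again beside a gate that removes Leydig transcripts. Among all genes tested between sets 2.01% were past 2-fold lower. The list had median log2 ratios of -1.88 in PBS, -1.31 in EXO and -0.66 in dEXO. Over all genes tested the medians were -0.09, -0.11 and 0.18. The share of all genes below the other sets in all 3 libraries, and the list without very deep cells, are not given here.

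Immediate early genes, which cells switch on within minutes of a stimulus and also during tissue dissociation, were lower in EXO and dEXO than in PBS for much of the list. Of 19 tested genes on the list, 10 were lower in EXO than in PBS and 17 lower in dEXO than in PBS, and 5 were lower in dEXO than in EXO; none was higher in any pair. Over all genes tested, 3.79% were called lower in EXO against PBS, 5.3% in dEXO against PBS and 4.15% in dEXO against EXO. Against PBS the list had medians of -0.66 (EXO) and -1.07 (dEXO), and the third was -0.32 for dEXO against EXO, where the median of all genes is 0. Without very deep cells they were -0.59, -0.79 and -0.13, with 10, 15 and 2 genes called lower, beside 2.55%, 3.21% and 2.48% of all genes.

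Jun, a subunit of the AP-1 transcription factor, stood at 1893 CPM in PBS, 718 CPM in EXO and 630.2 CPM in dEXO. PBS stood apart and the other libraries lay close together: the log2 ratio to PBS was -1.504 (-1.60 to -1.41) for EXO. For dEXO it was -1.74 (-1.85 to -1.63), and between dEXO and EXO -0.23 (-0.36 to -0.10). Its partner gene Junb stood at 1709 CPM in PBS, 804 CPM in EXO and 661 CPM in dEXO, with ratios to PBS of -1.19 (-1.29 to -1.10) and -1.53 (-1.64 to -1.42). Btg2, an antiproliferative gene, stood at 744 CPM in PBS, 302 CPM in EXO and 279 CPM in dEXO, and the ratios were -1.41 (-1.56 to -1.26) and -1.57 (-1.74 to -1.40). Fosb, another AP-1 subunit, followed the same order at 341 CPM in PBS, 167 CPM in EXO and 153 CPM in dEXO. For these 4 genes dEXO and EXO did not differ past 1.5-fold.

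A second group was called lower in dEXO against PBS and not in EXO. Fos stood at 1941 CPM in PBS, 1519 CPM in EXO and 952 CPM in dEXO, and its log2 ratio was -0.46 (-0.53 to -0.38) for EXO, not called, and -1.18 (-1.28 to -1.09) for dEXO against PBS. Egr1, a zinc finger transcription factor, stood at 690.0 CPM in PBS, 566 CPM in EXO and 327 CPM in dEXO, with ratios of -0.39 (-0.51 to -0.27) and -1.23 (-1.39 to -1.08). Klf6, a Krüppel-like factor, stood at 145 CPM in PBS, 128 CPM in EXO and 75.4 CPM in dEXO. Fos, Egr1, Klf6, Dusp1 (a MAP kinase phosphatase) and Nr4a1 (an orphan nuclear receptor) were the 5 called lower in dEXO than in EXO, and without very deep cells the ratios were -0.50, -0.62, -0.65, -0.37 and -0.48. Nr4a1 was the exception against PBS, at 85.8 CPM in PBS, 115 CPM in EXO and 73.2 CPM in dEXO.

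**Figure D2:**
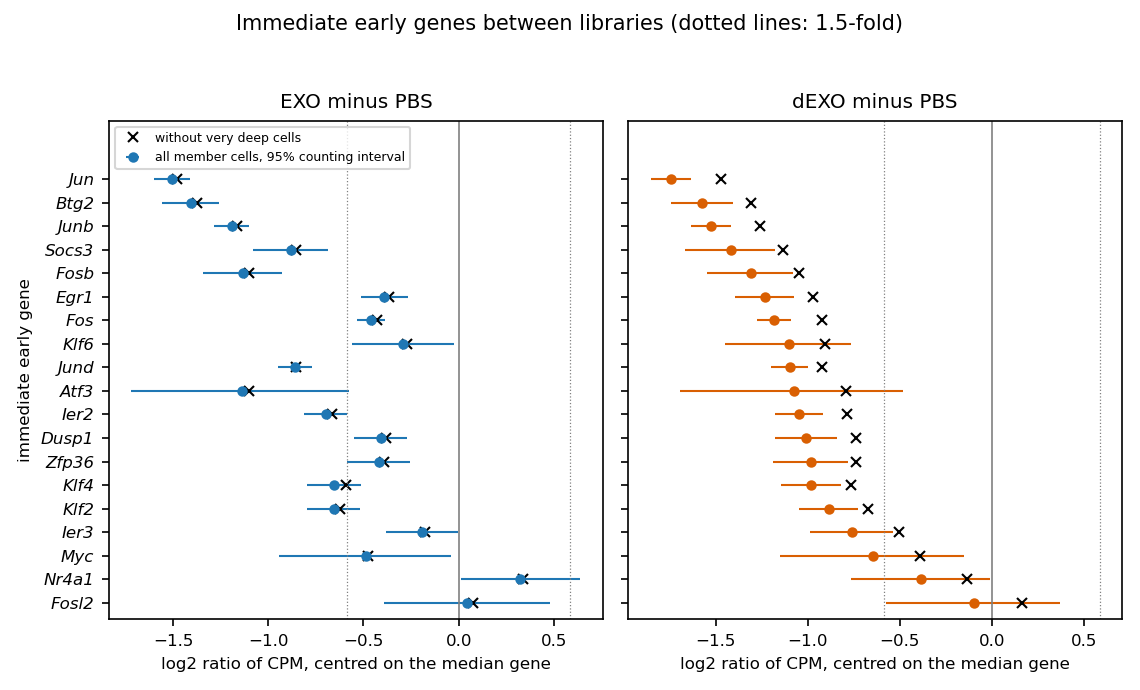
Log2 ratio of CPM to PBS for the 19 tested immediate early genes in EXO (left) and dEXO (right), with 95% counting intervals; crosses leave out the very deep cells and dotted lines mark 1.5-fold. Jun is lowest in both panels, and all 19 filled points lie below 0 in dEXO, while 1 cross, that of Fosl2, lies above it.

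Per cell, immediate early transcripts took a median of 1.08% of UMIs for PBS, 0.515% for EXO and 0.352% for dEXO. Cells with 1% or more were 51.8% of the PBS members (46.0 to 57.5). They were 35.6% of EXO members (31.6 to 39.8), and 27.8% (23.7 to 32.1) among dEXO members, so both the level and the share of cells with much of these transcripts were lower outside PBS. Every library held cells at both ends, from 0 up to 6.23%, 4.03% and 3.89%. Jun had a UMI in 60.1% (PBS), 39.4% (EXO) and 41.2% (dEXO) of cells at 1500 UMIs a cell. In germ cells at the same depth Jun was seen in 2.38%, 1.95% and 1.45%, where 42 PBS germ cells reached that depth. In other cell types at that depth the Jun shares for PBS, EXO and dEXO were 58.6%, 48.3% and 49.1% of T or NK cells and 50.6%, 30.2% and 36.5% of Leydig cells. In the Igf1 set the median mitochondrial share was 2.45%, 1.25% and 1.65% of UMIs and PBS cells were the deepest; the part of dissociation, depth and RNA quality in the difference was not tested.

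**Figure D3:**
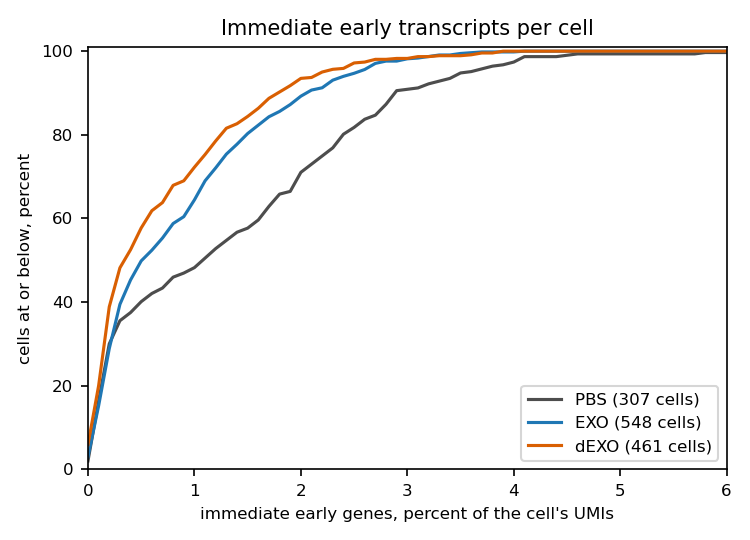
Cumulative share of the Igf1 set cells (vertical axis, percent) against the percent of a cell's UMIs from immediate early genes (horizontal axis), 1 line per library. The PBS line runs to the right of the others, with 51.8% of its cells at 1% or more.

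In the other stromal sets the median of the list was also below 0 against PBS: in EXO it was -1.08 in the Cyp26b1 set, -1.26 in the Mfap5 set and -0.30 in the Thbd set, and in dEXO -1.23, -2.18 and -0.08. In the Thbd set, with 49 PBS and 121 dEXO cells, 2 of 14 tested genes were called lower in dEXO against PBS and 1 higher. The share of all genes called in that set is not given here, so these counts have no background to be read against. In the Mfap5 set other lists lay below 0 in dEXO against PBS too, and these medians use all cells. Basement membrane had -0.98, matrix processing -0.89 and imprinted genes -1.11, whereas proliferation genes had 0.86. The difference between sets was not tested. The share of cells with 1% or more was 15.3%, 3.70% and 5.09% in the Cyp26b1 set, 36.3%, 14.7% and 13.6% in the Mfap5 set, and 12.2%, 8.81% and 9.09% in the Thbd set, each below the share in the Igf1 set of the same library. Median depths of the 4 sets within a library were 4501 to 5676.5 UMIs in PBS, 2077 to 2657.5 in EXO and 1840 to 2372 in dEXO. Of 20 tested genes on the list, Fos, Fosb, Jun, Junb and Zfp36 were over 2-fold higher than in the other sets in all 3 libraries, and Ccn1 was lower. Among all genes tested between sets 0.714% were higher and 2.01% lower. Jun stood at 1893, 718 and 630.2 CPM against 867, 206 and 156.

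The stretches before the starts of 5 of these genes are shown because the 5 stood among the list members that were lower in dEXO than in PBS, and such starts are known for cyclic AMP and AP-1 elements. They are the 250 bases upstream of the annotated start, 5′ to 3′ on the strand of the gene, in build GRCm38.p6 from RefSeq. Jun chr4:95052223-95052472 on the minus strand, Junb chr8:84978749-84978998 on the minus strand, Fos chr12:85473640-85473889 on the plus strand, Fosb chr7:19310046-19310295 on the minus strand and Btg2 chr1:134079156-134079405 on the minus strand are the windows. Capitals mark TGACG (and its reverse complement CGTCA), which is the core of the cyclic AMP element, TGACGTCA, the whole palindrome, and TGACATCA, a variant bound by Jun dimers; TGACG lies within TGACGTCA.
Jun: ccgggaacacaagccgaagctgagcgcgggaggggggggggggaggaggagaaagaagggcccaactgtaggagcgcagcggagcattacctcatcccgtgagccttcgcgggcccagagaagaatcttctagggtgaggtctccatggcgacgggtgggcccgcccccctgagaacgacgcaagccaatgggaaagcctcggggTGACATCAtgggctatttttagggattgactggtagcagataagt
Junb: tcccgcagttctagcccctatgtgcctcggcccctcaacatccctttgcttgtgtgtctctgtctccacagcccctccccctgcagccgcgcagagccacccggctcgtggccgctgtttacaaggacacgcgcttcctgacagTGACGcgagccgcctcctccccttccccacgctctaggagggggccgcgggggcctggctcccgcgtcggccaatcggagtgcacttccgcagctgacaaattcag
Fos: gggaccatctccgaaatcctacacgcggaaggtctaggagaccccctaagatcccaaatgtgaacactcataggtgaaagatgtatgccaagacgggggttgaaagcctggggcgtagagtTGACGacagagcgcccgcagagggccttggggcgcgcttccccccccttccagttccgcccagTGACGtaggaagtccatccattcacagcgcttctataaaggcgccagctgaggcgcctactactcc
Fosb: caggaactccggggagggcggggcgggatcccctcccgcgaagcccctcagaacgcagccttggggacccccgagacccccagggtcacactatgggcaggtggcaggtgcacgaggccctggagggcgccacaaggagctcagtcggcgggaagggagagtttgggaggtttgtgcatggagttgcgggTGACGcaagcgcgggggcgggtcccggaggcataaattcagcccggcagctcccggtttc
Btg2: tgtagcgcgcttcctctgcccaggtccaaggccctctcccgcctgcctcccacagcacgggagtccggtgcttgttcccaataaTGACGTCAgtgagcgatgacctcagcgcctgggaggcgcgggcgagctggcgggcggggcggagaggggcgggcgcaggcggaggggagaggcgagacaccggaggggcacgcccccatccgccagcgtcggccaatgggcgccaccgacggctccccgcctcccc
Jun holds TGACATCA from base -45 to -38 before the start, Junb TGACG at -106, Fos TGACG at -129 and at -66, Fosb TGACG at -60, and Btg2 the palindrome from -166 to -159. On either strand TGACG lies in 17.8% of 32851 RefSeq promoters of this length. Of the list, 19 genes have an entry, with 25 promoters, and are not the same 19 as those tested above. TGACG lies in 15 of these 25 promoters, from 12 genes. TGACGTCA lies in 1.55% of all promoters and in 3 of the 25 (Btg2, Dusp1 and Maff). TGACATCA lies in 2.93% and in 3 (Jun, Klf6 and Maff). The classic AP-1 letters TGACTCA lie in 4.46% and in none of the 25. The CArG box, the serum response element, lies in 1.47% and in 5 promoters of 2 genes (Egr2 and Zfp36). These are matches of letters and say nothing of what was bound in these cells.

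Within the set, the immediate early genes moved together from cell to cell. To describe this, each cell was thinned to 1500 UMIs, very deep cells and cells with other types' markers were left out, and cells with a UMI of a gene were set against cells without one in each library. Jun was present in 174 of 289 cells for PBS, 179 of 461 for EXO and 148 of 346 for dEXO. Of 4606 genes tested, 126, or 2.74%, were higher with Jun and 63, or 1.37%, lower, each with an interval that excluded 0 in the same direction in all 3 libraries. A further 6 went opposite ways between libraries. At 1000 UMIs a cell 85 of the 126 and 20 of the 63 were called again. On the immediate early list 15 of 18 genes were higher and none lower. Fos stood at 3249 against 325 CPM in PBS, 3166 against 667 in EXO and 2319.8 against 327 in dEXO, and Btg2 at 1238 against 110.1 CPM in PBS, 588 against 102 in EXO and 590.1 against 135 in dEXO. Id3, an inhibitor of helix-loop-helix factors, had log2 differences of 1.26, 1.18 and 1.01.

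The cells with Jun also had more Lum, with differences of 1.81, 1.46 and 1.09, more Cebpd, an adipogenic factor, with 1.44, 1.00 and 1.02, and more Mt1, a metallothionein, with 1.17, 1.28 and 0.96. Ribosomal protein genes made up 63 of the 126 higher genes, and 6 of the 63 lower genes were mitochondrial. On the basement-membrane list 5 of 19 genes were lower with Jun (Col4a1, Col4a4, Col15a1, Lama2 and Lamb2) and 1, Sparc, was higher, beside 1.37% of all genes lower. Of these, Col15a1 belongs to the deciding sum and Col4a4 to a rival sum. Lama2, a laminin chain, differed by -0.86, -0.72 and -0.71, Ptch1, the hedgehog receptor, by -1.30, -1.49 and -1.42, Il6st, the shared receptor of the interleukin-6 family, by -1.02, -0.87 and -0.76, and Cyp26b1, which degrades retinoic acid, by -0.87, -1.28 and -0.67. Igf1 itself was lower, with differences of -0.32, -0.19 and -0.19. Igf1 belongs to the deciding sum and Cyp26b1 to a rival sum, so the rule bears on both and their differences are a description.

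A second contrast set Igfbp3 against Cyp26b1, a gene of a rival sum whose count the rule limits. Igfbp3 had a UMI in 9.34% (PBS, 27 cells), 17.1% (EXO) and 16.8% (dEXO) of cells. With it 13 genes (0.282%) were higher and 12 (0.261%) lower in all 3 libraries, while 11 went opposite ways between libraries. At 1000 UMIs a cell, where 3441 genes were tested, 4 of the 13 and 5 of the 12 were called again. Lum was the leading companion, at 395 against 119.6 CPM in PBS, 329 against 99.5 in EXO and 264 against 48.6 in dEXO. Sox9, a transcription factor of cartilage and Sertoli cells, differed by 2.28, 1.27 and 1.46, the complement component C3 by 0.63, 0.55 and 1.23, and Gpx3, a secreted peroxidase, by 0.69, 1.31 and 0.46. Cyp26b1 was the leading gene in the other direction, at 173 against 809 CPM in PBS, 346 against 1065 in EXO and 207 against 669 in dEXO. Col4a2, a basement-membrane collagen, differed by -1.95, -1.32 and -1.49, and Mgp, the matrix Gla protein, by -1.15, -1.06 and -1.27.

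Read from the other side, Cyp26b1 was present in 46.7% (PBS), 50.1% (EXO) and 39.6% (dEXO) of cells; it is a gene of a rival sum, so the rule holds its count down in members. With it, 23 genes (0.499%) were higher and 44 (0.955%) lower, while 11 went opposite ways between libraries. At 1000 UMIs a cell 9 of the 23 and 27 of the 44 were called again. Adcy7, an adenylyl cyclase, differed by 2.04, 1.15 and 1.502, Col4a4 by 1.15, 1.29 and 0.75, and Pdgfra, the receptor that marks interstitial progenitors, by 0.52, 0.60 and 0.54. Col4a4 belongs to the same rival sum and Pdgfra is a gate gene, so the rule bears on both. Sult1e1, an estrogen sulfotransferase, was lower, with differences of -2.51, -3.18 and -1.81, as were Igfbp3, with -3.69, -1.25 and -1.49, and Apoe, with -0.57, -0.52 and -0.58. Of the 44 lower genes, 24 encode ribosomal proteins.

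Dlk1, in contrast, marked hardly any other gene. With a UMI of Dlk1 in 29.4% (PBS), 33.8% (EXO) and 19.1% (dEXO) of cells, 0 of 4606 genes were higher in all 3 libraries and 3 (0.0651%) were lower: Col3a1, a fibrillar collagen, with differences of -0.50, -0.52 and -0.55, Igf1, with -0.32, -0.16 and -0.45, and Dcn, with -0.27, -0.06 and -0.12. The rule bears on Igf1 here, since a cell with Dlk1 needs fewer Igf1 UMIs to enter the set. Col3a1 and Dcn are gate genes, so all 3 are genes of the rule. At 1000 UMIs a cell 4 genes were higher with Dlk1 and 0 lower, so none of these calls was shared by both depths.

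**Figure D4:**
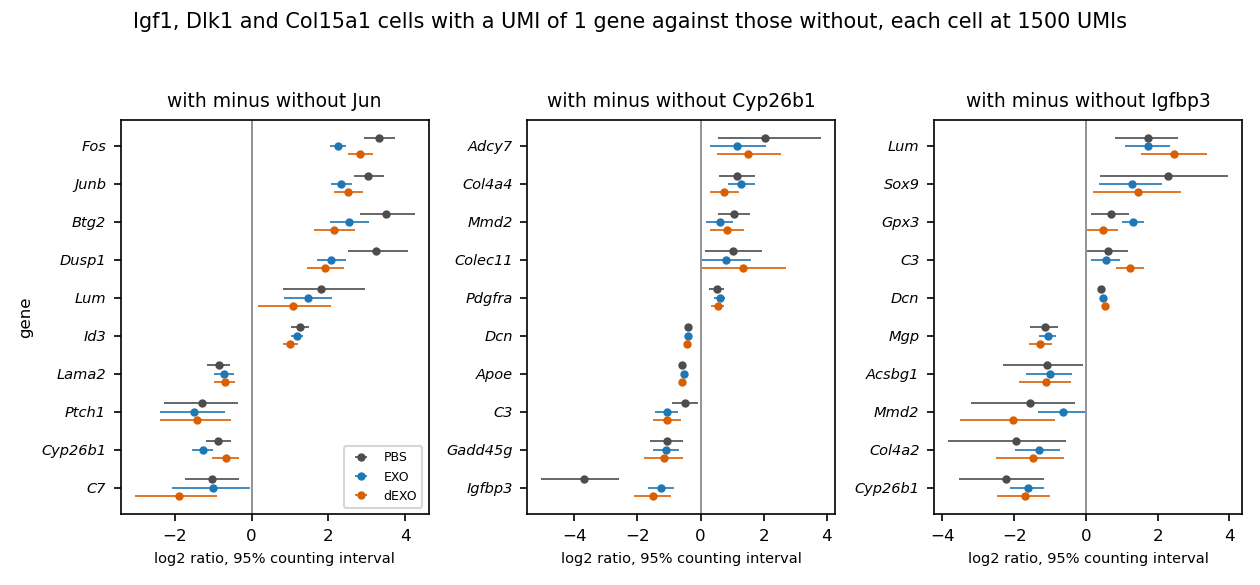
Log2 difference (horizontal axis, with 95% counting intervals) between Igf1 set cells with and without a UMI of Jun, Cyp26b1 or Igfbp3, for 10 genes each, 1 point per library. Fos and Lum lie right of 0 with Jun, and Igfbp3 and Cyp26b1 lie left of 0 in each other's panel, in all 3 libraries.

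Several further genes, from different lists and named with their values known, were lower in dEXO than in both other libraries. Over all genes tested 5.3% were called lower in dEXO against PBS. Of the genes described next, Tcf21 is a gate gene, Dlk1 belongs to the deciding sum and Cyp26b1 to a rival sum, so their levels among members are shaped by the rule and are given as a description. Tcf21, a transcription factor of interstitial progenitors, stood at 503 CPM in PBS, 448 CPM in EXO and 198 CPM in dEXO; its log2 ratio was -1.498 (-1.70 to -1.30) against PBS and -1.22 (-1.42 to -1.01) against EXO. Without very deep cells these were -1.22 (-1.43 to -1.02) and -0.99 (-1.20 to -0.79). Tcf21 was lower in dEXO than in PBS in the other stromal sets too, with ratios of -1.20 in the Cyp26b1 set, -2.08 in the Mfap5 set and -0.98 in the Thbd set. In the Mfap5 set the whole Leydig stem and progenitor list, which holds Tcf21, had a median of -0.92. Dlk1 stood at 536 CPM in PBS, 573 CPM in EXO and 291 CPM in dEXO, with dEXO ratios of -1.04 (-1.21 to -0.86) against PBS and -1.01 (-1.19 to -0.84) against EXO, or -0.80 and -0.82 without very deep cells. It was lower in dEXO than in PBS in the Cyp26b1, Mfap5 and Thbd sets too, with ratios of -1.12, -1.82 and -1.28.

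Hes1, a Notch target, stood at 213 CPM in PBS, 219 CPM in EXO and 132 CPM in dEXO, and Gata4, a gonadal transcription factor, at 63.5 CPM in PBS, 70.2 CPM in EXO and 42.2 CPM in dEXO. Against PBS and EXO the ratios were -0.84 (-1.11 to -0.58) and -0.77 (-1.03 to -0.51) for Hes1, and -0.75 and -0.78 for Gata4, which without very deep cells were -0.49 and -0.53, inside 1.5-fold. Ptn, the secreted growth factor pleiotrophin, stood at 50.3 CPM in PBS, 37.1 CPM in EXO and 19.2 CPM in dEXO, a ratio of -1.54 (-2.23 to -0.90) to PBS. For dEXO against PBS, Ptn had -1.69 in the Cyp26b1 set and -2.16 in the Mfap5 set. Hes1 had -0.39 and -1.58 there, and -0.59 in the Thbd set. Cyp26b1 stood at 692 CPM in PBS, 817 CPM in EXO and 475 CPM in dEXO and Fabp4 at 92.6 CPM in PBS, 83.0 CPM in EXO and 52.5 CPM in dEXO, with ratios to PBS of -0.70 (-0.84 to -0.56) and -0.97 (-1.40 to -0.56), or -0.43 and -0.67 without very deep cells. Of 13 tested genes on the Leydig stem and progenitor list, 3 were lower in dEXO than in PBS (Tcf21, Hes1 and Gata4) and none higher, beside 5.3% lower of all genes. With the very deep cells left out 2 of 13 were lower, Tcf21 and Hes1, beside 3.21%. Among the others on the list, Pdgfra, a gate gene, and Nr2f2 had ratios of -0.32 and -0.38.

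Cdkn1a, the p53 target that encodes the cell cycle inhibitor p21, stood at 62.3 CPM in PBS, 36.0 CPM in EXO and 14.8 CPM in dEXO, with ratios of -0.90 (-1.37 to -0.43) for EXO and -2.23 (-3.00 to -1.53) for dEXO against PBS. Of 10 tested p53 targets, 2 were lower in dEXO than in PBS (Cdkn1a and Phlda3) and none higher, beside 5.3% lower of all genes. Among cells that were not very deep 1 was lower, Cdkn1a, and 1 higher, Mdm2. Mdm2, the p53 ubiquitin ligase, stood at 48.6 CPM in PBS, 40.0 CPM in EXO and 67.3 CPM in dEXO and was called higher in dEXO than in EXO.

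Cxcl1, a neutrophil chemokine, was lower in both exosome libraries. It stood at 81.2 CPM in PBS, 18.0 CPM in EXO and 14.8 CPM in dEXO, with ratios to PBS of -2.28 (-2.89 to -1.71) and -2.61 (-3.37 to -1.93); it was seen in 46 PBS cells. C7, a terminal complement component, stood at 151 CPM in PBS, 75.4 CPM in EXO and 95.4 CPM in dEXO. Lars2, a mitochondrial tRNA synthetase, was seen in 264 PBS cells and stood at 619 CPM in PBS, 165 CPM in EXO and 306 CPM in dEXO, lowest in EXO. Mfap4, an elastic fibre protein, stood at 161 CPM in PBS, 114 CPM in EXO and 90.2 CPM in dEXO.

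Many calls rested on single cells. In EXO against PBS 306 genes (3.48%) were called higher, in dEXO against PBS 1025 (11.9%) and in dEXO against EXO 1145 (13.1%). In 36, 480 and 590 of them a single cell held at least 50% of the UMIs. The same was true of 151 of the 333 genes called lower in EXO against PBS, and of 5 and 4 of the 456 and 364 called lower in dEXO against PBS and against EXO. Without very deep cells the numbers were 298 (3.84%), 551 (7.5%) and 498 (6.63%). Iigp1, an interferon-induced GTPase, stood at 35.4 CPM in PBS, 61.5 CPM in EXO and 97.6 CPM in dEXO, with ratios to PBS of 0.69 (0.22 to 1.17) in EXO and 1.31 (0.86 to 1.77) in dEXO, and of 1.61 in dEXO without very deep cells. Of 16 interferon genes tested between dEXO and PBS, 2 were higher, Iigp1 among them, and 1 was lower, beside 11.9% and 5.3% of all genes; without very deep cells 3 were higher and 1 lower. The lower gene, Isg15, a ubiquitin-like interferon product, stood at 45.2 CPM in PBS, 26.1 CPM in EXO and 13.3 CPM in dEXO, a ratio of -1.92 (-2.74 to -1.17). For dEXO against PBS Isg15 had a ratio of 0.94 in the Cyp26b1 set and -1.27 in the Mfap5 set.

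Col6a5, a collagen VI chain, stood at 14.9 CPM in PBS, 74.3 CPM in EXO and 75.4 CPM in dEXO and came from 22 EXO and 20 dEXO cells, with ratios of 2.22 (1.60 to 2.88) and 2.19 (1.55 to 2.87). Fn1, fibronectin, stood at 9.15 CPM in PBS, 40.0 CPM in EXO and 38.5 CPM in dEXO. Smad6, an inhibitor of BMP signalling, stood at 21.7 CPM in PBS, 20.3 CPM in EXO and 42.2 CPM in dEXO, and its ratio for dEXO was 0.80 (0.18 to 1.43) against PBS and 1.20 without very deep cells. Lcn2, the iron carrier lipocalin 2, stood at 241 CPM in PBS, 328 CPM in EXO and 556 CPM in dEXO; it was called higher in dEXO than in EXO, but with the cells that carried other types' markers left out as well the ratio was -0.067.

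Matrix and IGF genes, the families to which Col15a1 and Igf1 belong, are given here beside the shares of all genes called. Of all genes 3.48% were called higher and 3.79% lower in EXO against PBS, and 11.9% and 5.3% in dEXO against PBS. Without very deep cells these shares were 3.84% and 2.55% in EXO and 7.5% and 3.21% in dEXO. Of 19 tested basement-membrane genes none was called in EXO against PBS and 1, Col4a2, was lower in dEXO, a call lost without very deep cells, where Lama1 was called higher in EXO. The list medians were 0.08 and -0.23, and 0.05 in dEXO without very deep cells. Interstitial collagens had medians of 0.11 and -0.32, and -0.04 in dEXO without very deep cells, and only Col6a5 and Col6a6 were called against PBS in either library. The IGF axis had medians of 0.00 and -0.30, and -0.02 in dEXO without very deep cells; of its 12 tested genes none was called in EXO and 1 was lower in dEXO, Igfbp7, a matrix-bound relative of the binding proteins, at 3562 CPM in PBS, 3078 CPM in EXO and 2413 CPM in dEXO. That call was lost without very deep cells, and Irs2, a substrate of the insulin and IGF receptors, was then called higher. The receptor gene Igf1r stood at 177 CPM in PBS, 234 CPM in EXO and 232 CPM in dEXO, and Igfbp4 and Igfbp6, secreted binding proteins, had ratios to PBS in dEXO of -0.35 (-0.49 to -0.20) and -0.35 (-0.43 to -0.27). Each of these 3 dEXO medians lay nearer to 0 without the 6 very deep cells.

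**Figure D5:**
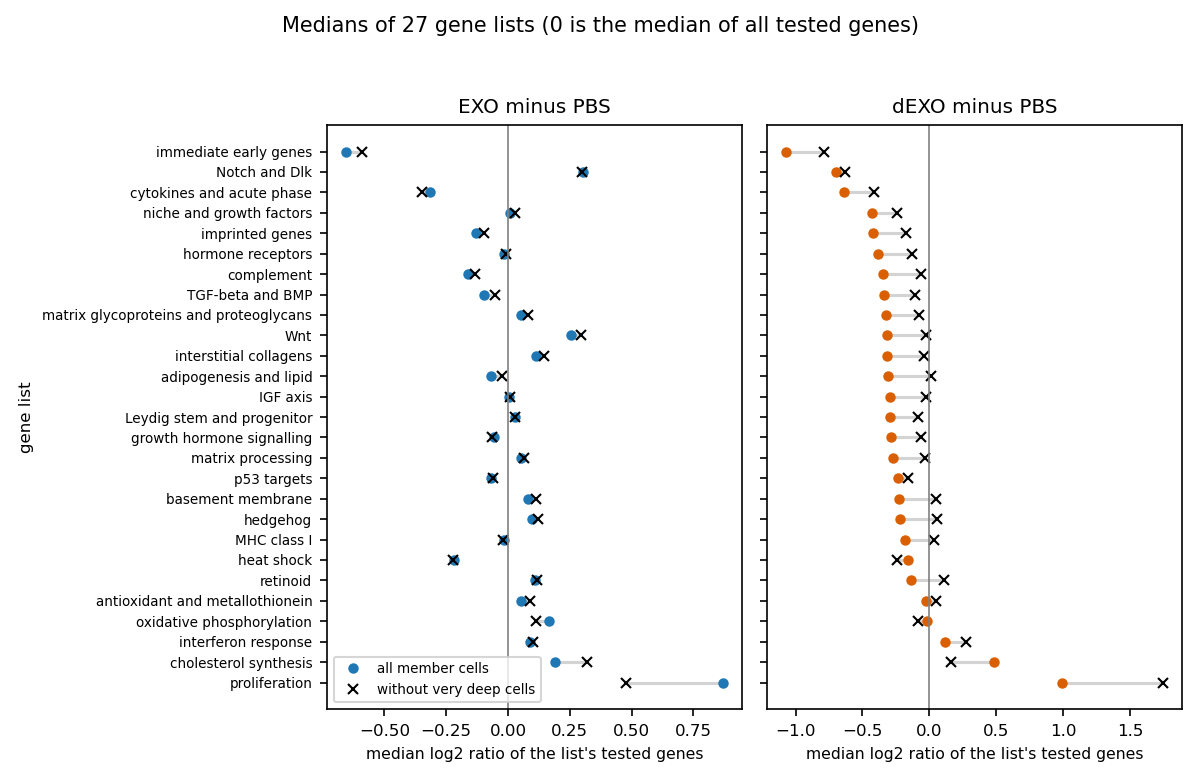
Median log2 ratio to PBS of the tested genes of each of 27 lists in EXO (left) and dEXO (right); filled points use all cells and crosses leave out the very deep cells. The immediate early list is lowest in both panels, and most other lists in dEXO return towards 0 without the very deep cells; the proliferation crosses rest on 3 and 2 tested genes.

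Ligands that act on germ cells and other niche cells were also compared between libraries. Of 16 tested niche and growth factor genes 1, Nrg1, was lower in EXO than in PBS, and of 15 tested 3 were lower in dEXO: Ptn, Nrg2 and Pdgfd, beside 3.79% and 5.3% lower of all genes. Nrg1 was still lower in EXO without very deep cells, and of the 3 in dEXO Ptn alone. Kitl, the ligand of the receptor Kit on germ cells, stood at 349 CPM in PBS, 405 CPM in EXO and 325 CPM in dEXO; Csf1, which acts on macrophages and spermatogonia, at 292 CPM in PBS, 288 CPM in EXO and 225 CPM in dEXO; and Cxcl12, a chemokine for stem cells, at 769 CPM in PBS, 784 CPM in EXO and 727 CPM in dEXO. None of these 3 was called in any pair. Cholesterol synthesis genes had a median of 0.19 in EXO against PBS, with 5 of 17 called higher, and of 0.48 in dEXO, with 4 of 13, beside 3.48% and 11.9% higher of all genes. Without very deep cells 7 of 15 were higher in EXO, with a median of 0.32, and 2 of 10 in dEXO, with a median of 0.16. The Leydig marker sum was 415, 1029.7 and 921 CPM, and its part in this was not tested. Proliferation genes had 6 of 10 called higher in EXO and 9 of 11 in dEXO against PBS, but only 3 and 2 genes could still be tested without very deep cells, with 0 and 1 called higher.

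Several of the largest ratios came from few cells. Saa3, an acute phase protein, had 264 UMIs in PBS, 99.6% of them in 1 of 2 cells. Cd74, the invariant chain of antigen presentation, had 322 UMIs in 15 EXO cells, 41.0% of them in 1, and H2-Aa, H2-Eb1 and H2-Ab1 of MHC class II were seen in 12 to 13 EXO cells. With cells carrying other types' markers left out, H2-Eb1 had a ratio of -0.13 in EXO against PBS. Uchl1, Stra8, Dazl and Sycp3, germ cell genes, were highest in dEXO, where 92.5%, 91.6%, 90.5% and 82.3% of their UMIs lay in the 6 very deep cells. The macrophage markers summed to 17.2 CPM in PBS, 135 in EXO and 47.3 in dEXO, and the spermatocyte and spermatogonium markers to 68.6, 196 and 530.3 CPM, or 16.3, 71.7 and 156 CPM without very deep cells.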

How the data were processed

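Single cells of mouse testis were measured in 3 droplet 10x 3′ libraries, 1 per group. The deposited matrices hold whole-number counts of UMIs per gene and barcode, made by the authors with Cell Ranger 5.0.1, per the file headers; GRCm38 is named in the submitters' processing notes. All 55450 genes matched the annotation. Cells were kept from 500 UMIs and 300 genes upwards, with mitochondrial UMIs of 20% or less. Scrublet called 5, 2 and 0 doublets, which is too few to use, so none were removed, and an alternative removed the 222, 778 and 665 highest scores. UMIs were summed per library. Ratios between libraries were computed for genes with at least 50 UMIs over both, with exact conditional binomial 95% intervals, which like the Clopper-Pearson intervals cover counting error only; limits for a count of 0 use 3 counts. Calculations used Python 3.11.15, scipy 1.17.1 and scanpy 1.11.5, and edgeR 4.0.16 gave TMM factors for 1 alternative. The code was checked on simulated data. Named genes were the 10 highest and lowest per pair of libraries, up to 4 per list, and the 15 highest and 10 lowest between sets. The members, the 27 lists and the 13 marker lists were chosen with earlier results of these data known. Further genes were named after their values were seen, among them those of the comparisons within the set. Some genes that met these rules are not reported here.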

Additional observations from a re-analysis of the deposited data

Results flagged for a closer look

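Oxidative phosphorylation genes, which encode the respiratory chain, had a median log2 ratio of 0.16 between EXO and PBS in the Igf1 set, with 37 of 43 genes above 0. The same list had a median of -0.20 in the Cyp26b1 set and -0.21 in the Mfap5 set, the opposite direction, and 0.10 in the Thbd set, the same direction. The differences between the sets were not tested. In the Igf1 set 2 of the 43 genes were called, both higher, beside 3.48% higher and 3.79% lower of all genes. Without very deep cells none was called, beside 3.84% and 2.55% of all genes, and the median was 0.11.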

How the results depend on the processing

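Over the alternatives run, the median of the immediate early genes ranged from -0.68 to -0.43 for EXO and from -1.19 to -0.67 for dEXO against PBS, the ratio of Tcf21 in dEXO against PBS from -1.61 to -1.13 and that of Dlk1 from -1.15 to -0.63. No paired analysis was possible because each group has 1 library. Leaving out a replicate could not be done for the same reason. The share of the Igf1 set in EXO was 12.3% at 1500 UMIs. Numbers of called genes moved most; they are given as higher then lower where both moved. Without centring, EXO against PBS had 499 and 201 and dEXO against PBS 197 lower; with median-of-ratios factors dEXO against PBS had 704 lower. With at least 100 UMIs the numbers were 155 and 193 (EXO against PBS), 657 and 275 (dEXO against PBS), and 740 and 194 (dEXO against EXO); with no filter, 771 higher, 1024 lower and 908 lower. At 1500 UMIs a cell they were 110 and 118, 196 and 127, and 229 and 123; in cells of 1500 to 6000 UMIs, 182 lower, 382 and 167, and 399 and 160. With each cell weighted equally, EXO against PBS had 834 higher. The alternatives without very deep cells, without cells of other types' markers and at 1000 UMIs were added after seeing the data: without very deep cells there were 198 lower, 551 and 236, and 498 and 186, and without both kinds 195 lower, 496 and 222, and 442 and 168. Between sets, 458 genes were lower against the Mfap5 set and 35 against the Thbd set, 24 were higher and 142 lower at 1500 UMIs, and 45 higher without very deep cells. At 1000 UMIs, 26 genes were lower with Jun, 11 higher with Cyp26b1, 6 higher with Igfbp3, and 4 higher and 0 lower with Dlk1.

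Directions turned in these cases. In dEXO against PBS the basement-membrane median was 0.030 at 1500 UMIs, 0.031 in cells of 1500 to 6000 UMIs, 0.051 without very deep cells and 0.043 without both kinds, the TGF-beta and BMP median was 0.038 at 1500 UMIs, and there Rspo1 had 0.21 and Sqle -0.37. In EXO against PBS, H2-Eb1 had -0.15 without the highest doublet scores and -0.13 without both kinds; Uchl1 had -0.23 at 1500 UMIs and -1.78 in cells of 1500 to 6000 UMIs, where Fdps had -0.28; Top2a had -0.12 and -0.055, and Mki67 -0.63 and -0.57, without very deep cells and without both kinds, and Mki67 -0.23 at 1500 UMIs. In dEXO against EXO, Cd74 had 0.51, H2-Ab1 0.12 and Lcn2 -0.30 without the highest doublet scores, and Cd74 0.37, H2-Aa 0.15 and Lcn2 -0.067 without both kinds; Igfbp2 had -1.17 at 1500 UMIs, -0.68 with equal weights, -0.14 without very deep cells and -0.30 without both kinds. The cause was not tested.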
